A study of Rattus norvegicus with 8 samples.

Results

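Kinase suppressor of Ras 1 (KSR1) is a scaffold protein, encoded by Ksr1, that holds RAF, MEK and ERK kinases together so that one can phosphorylate the next. In this cascade an activated Ras protein recruits the RAF kinases (Araf and Braf), which phosphorylate MEK1 and MEK2 (Map2k1 and Map2k2), which in turn phosphorylate the ERK kinases, here ERK1 (Mapk3). Active ERK induces its own inhibitors, among them the ERK phosphatase gene Dusp6 and the receptor signaling inhibitor gene Spry2. In dorsal horn neurons, ERK phosphorylation is known to follow noxious input and to take part in the sensitization of neurons, and the visceral afferents of the colon end in the lumbosacral segments.

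The transcripts of these 8 genes were examined in an mRNA array of lumbar L6S1 spinal cord segments from 4 stressed and 4 control male Wistar rats, 12 weeks old, with 1 array per rat. Stressed rats were placed daily on a platform surrounded by water (water avoidance stress, WA) for 10 days, and tissue was taken 24 h after the last session; control rats were handled and not stressed. The meninges were removed before RNA isolation. The tissue holds all cell types of the cord segment, so that a lower number of cells of one type and less RNA per cell cannot be told apart.

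All probes that the array files name for these genes were taken, with control spots left out. They were 12 probes of 30367 on the array, in 32 of 58717 spots, and 8 of the 26514 gene names in the files. Ksr1 had 2 probes, Araf had 4, and each other gene had 1. The genes were chosen by name with the differences between stressed and control rats in these arrays already known, so the differences below are a description, with no test.

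Values are the log2 fluorescence signal of a probe minus the 75th percentile of its array, so that 0 is the signal of the 75th percentile and each step of 1 doubles it. Probes differ in how strongly they hybridize, and values were compared between arrays for the same probe, not between probes. A probe was tested when 4 or more of the 8 arrays showed it well above background. This was so for 11 of the 12 probes, and for at least 1 probe of all 8 genes. The exception was the first Ksr1 probe.

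What each probe reads bears on the Ksr1 and Araf results, in which probes of 1 gene differ. Probes of a gene were numbered from 5′ to 3′ along the transcribed strand, with positions on the rn4 assembly as the array files give them. Sequences are those of the array, 5′ to 3′, and capitals mark every stop triplet (TAA, TAG or TGA) in any reading frame. Ksr1 probe 1 lies at chr10:65193415-65193474 on the minus strand, and 2 of its 3 reading frames are free of stop triplets. Ksr1 probe 2 lies 6521 bases further 3′, at chr10:65186894-65186953, and has a stop triplet in each of the 3 frames. The last 30 bases of probe 2 are shown, in which the stop triplets crowd.
Ksr1 probe 1: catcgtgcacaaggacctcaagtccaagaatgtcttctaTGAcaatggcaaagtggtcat
Ksr1 probe 2, last 30 bases: agtTAGgTAAgctcTGAtcTGAgcctTAGa

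The Araf probes lie on the minus strand of chromosome X, at chrX:12564615-12564674 (probe 1), chrX:12558968-12559027 (probe 2), chrX:12557686-12557745 (probe 3) and chrX:12556982-12557041 (probe 4). The outer probes are 7633 bases apart in the genome. The array files give probe 1 another transcript accession than probes 2 to 4, and RefSeq assigns both accessions to Araf. All 4 have at least 1 frame without a stop triplet, and probes 2 and 3 are shown whole because they moved together and apart from probes 1 and 4. Of probes 1 and 4, the last 30 bases are shown.
Araf probe 1, last 30 bases: caaTAGttcaaggctaccctccacTAAgta
Araf probe 2: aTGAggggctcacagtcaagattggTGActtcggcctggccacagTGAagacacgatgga
Araf probe 3: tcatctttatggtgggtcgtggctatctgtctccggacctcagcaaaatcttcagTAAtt
Araf probe 4, last 30 bases: cTGAattatggggttcccagcaccccatgc

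The Spry2 probe, which had the highest difference of the 11, lies at chr15:90009823-90009882 on the minus strand and has 1 frame without a stop triplet.
Spry2: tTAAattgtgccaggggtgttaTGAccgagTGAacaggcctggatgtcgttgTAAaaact

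The remaining probes were single ones for Braf (chr4:67129009-67129068, minus strand), Map2k1 (chr8:68379787-68379846, minus strand), Map2k2 (chr7:10074654-10074713, minus strand), Mapk3 (chr1:185941185-185941244, plus strand) and Dusp6 (chr7:36897369-36897428, plus strand). Exons and untranslated regions were not analysed here. Of the 9 transcript accessions that the files give for the 12 probes, 7 are listed for the same gene by RefSeq. The accession of the Ksr1 probes and the identifier of the Braf probe were not matched, and these probes are named as the files name them.

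The scaffold transcript was lower in the stressed rats at the Ksr1 probe that gave a signal. At Ksr1 probe 2, the log2 signal of stressed rats 1 to 4 was -1.77, -1.76, -1.84 and -1.72. That of control rats 1 to 4 was -1.29, -1.31, -1.03 and -1.12. The groups did not overlap, and the highest stressed rat lay 0.42 below the lowest control rat. Control rats had a mean of -1.18 ± 0.13 (SD, n = 4) and stressed rats of -1.77 ± 0.05 (SD, n = 4), a difference of -0.59 (SE 0.08), or 66.5% of the control signal. On the scanner's own scale, before scaling between arrays, the signal was 512 to 589 in stressed rats and 744 to 1132 in control rats.

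The stressed rats were close to each other at this probe, while the control rats fell into a lower pair, 1 and 2, and a higher pair, 3 and 4. The probe was printed in 2 spots, which gave differences of -0.57 and -0.61, each without overlap between the groups. The 2 spots of an array differed by 0.02 to 0.27. Ksr1 probe 1 was well above background on 0 of 8 arrays and was not tested. Its processed signal was 3.14 to 12.9 over the arrays, so there was no second Ksr1 reading against which to set the difference at probe 2.

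**Figure D1:**
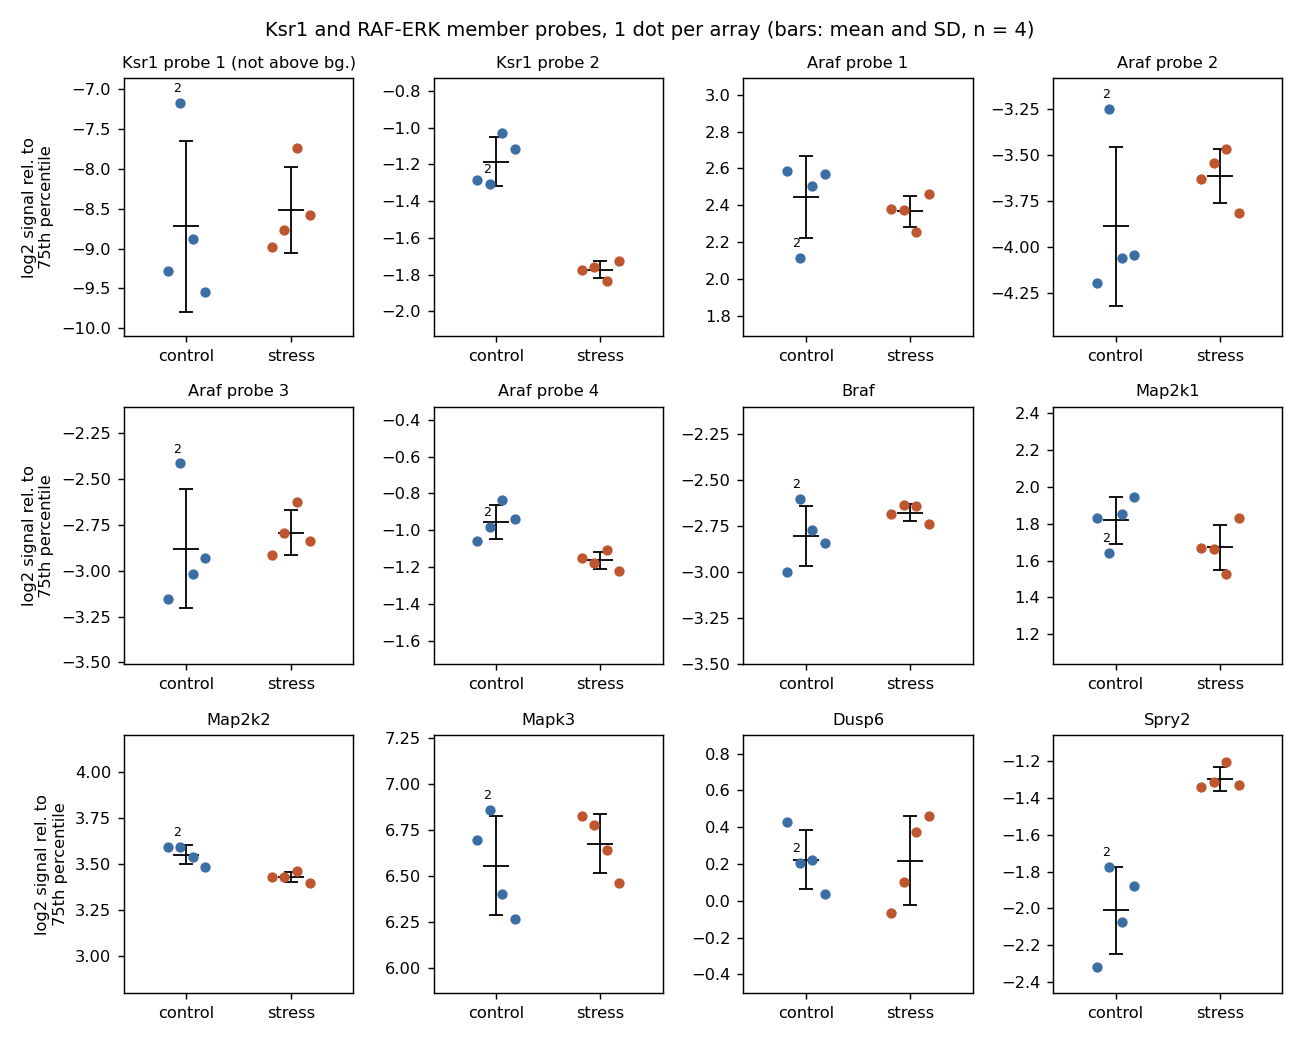
Scaled log2 signal (75th percentile of the array at 0; y axis, with its own range in each panel) for the 12 probes, with 1 dot per rat in the control and stressed groups (x axis), bars for mean and SD (n = 4), and control rat 2 marked. The stressed rats lie below all control rats at Ksr1 probe 2, Araf probe 4 and Map2k2 and above all control rats at Spry2, while Ksr1 probe 1 was not well above background.

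Of the RAF kinase genes, Araf encodes A-RAF and was read by 4 probes. They did not move together. At Araf probe 1 the stressed rats had 2.38, 2.37, 2.25 and 2.46 and the control rats 2.58, 2.11, 2.50 and 2.57, a difference of -0.08 (SE 0.12). At Araf probe 2 the stressed rats had -3.63, -3.55, -3.47 and -3.82 and the control rats -4.20, -3.25, -4.06 and -4.04, a difference of 0.27 (SE 0.21). In both probes the groups overlapped through control rat 2, which was the lowest of the 8 at probe 1 and the highest of the 8 at probe 2.

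Araf probe 3 followed probe 2. Its values were -2.91, -2.79, -2.63 and -2.84 in stressed rats and -3.16, -2.42, -3.02 and -2.93 in control rats, with a difference of 0.09 (SE 0.16). Control rat 2 lay 0.85 above the mean of the other control rats at probe 2 and 0.62 above it at probe 3, whereas the same distance was -0.44 at probe 1 and -0.03 at probe 4. At Araf probe 4, the probe nearest the 3′ end, the stressed rats had -1.15, -1.18, -1.11 and -1.22 and the control rats -1.06, -0.98, -0.84 and -0.94. Here all stressed rats were below all control rats, by a gap of 0.05, and the difference was -0.21 (SE 0.07).

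Braf encodes B-RAF, the RAF kinase with the highest basal activity toward MEK. Its probe had -2.69, -2.64, -2.64 and -2.74 in stressed rats and -3.0, -2.60, -2.77 and -2.84 in control rats. The groups overlapped, with control rat 2 above all stressed rats, and the difference was 0.13 (SE 0.09).

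The MEK kinase genes both had small negative differences, that of Map2k1 being close to 0 (-0.01) once the 5′ to 3′ coverage of the arrays entered the fit as a covariate. Map2k1 had 1.67, 1.66, 1.53 and 1.83 in stressed rats and 1.83, 1.64, 1.85 and 1.94 in control rats, with overlap and a difference of -0.15 (SE 0.10). Map2k2 had 3.43, 3.43, 3.47 and 3.40 in stressed rats and 3.59, 3.59, 3.54 and 3.49 in control rats. The Map2k2 groups did not overlap, but the gap between them was 0.02 and the difference -0.12 (SE 0.06), with means of 3.55 ± 0.05 in control and 3.43 ± 0.03 in stressed rats (SD, n = 4).

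Mapk3, which encodes ERK1, had 6.82, 6.78, 6.64 and 6.46 in stressed rats and 6.70, 6.86, 6.40 and 6.27 in control rats. The groups overlapped and differed by 0.12 (SE 0.15). No member probe was saturated on any array, Mapk3 included. Over the 8 kinase probes the differences ran from -0.21 to 0.27, so that none was as far from 0 as the difference of Ksr1 probe 2.

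The feedback genes differed from each other. Dusp6 encodes a cytoplasmic phosphatase that removes the activating phosphates of ERK, and its probe was printed in 10 spots. Its values were -0.07, 0.10, 0.37 and 0.46 in stressed rats and 0.43, 0.21, 0.22 and 0.04 in control rats. The stressed rats spanned the range of the control rats and beyond, and the difference was -0.01 (SE 0.14).

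Spry2 encodes Sprouty 2, an inhibitor that acts between receptor tyrosine kinases and the cascade. Its values were -1.34, -1.31, -1.20 and -1.33 in stressed rats and -2.32, -1.78, -2.07 and -1.88 in control rats. All stressed rats were above all control rats, with a gap of 0.43. Control rats had a mean of -2.01 ± 0.24 (SD, n = 4) and stressed rats of -1.30 ± 0.06 (SD, n = 4), a difference of 0.71 (SE 0.12), or 164% of the control signal. Control rat 2 was the control nearest to the stressed rats.

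In the limma fit over 23678 tested probes, 3.74% of all probes passed a false discovery rate (FDR) of 0.1, with 0.971% lower and 2.77% higher in stressed rats. Of the 11 member probes, 2 passed, Ksr1 probe 2 (lower) and Spry2 (higher). At an FDR of 0.05, which 0.477% of all probes passed, 1 member probe passed, Ksr1 probe 2. The groups did not overlap at 12.1% of all probes, with stressed rats lower at 5.44% and higher at 6.65%. Of the member probes, 3 were lower without overlap (Ksr1 probe 2, Araf probe 4 and Map2k2) and 1 was higher without overlap (Spry2). The median difference was -0.01 over the 11 member probes, of which 5 were higher in stressed rats, and 0.06 over all tested probes, of which 59.6% were higher. Because the genes were chosen with this contrast known, nothing is read from these counts.

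Which calls were made depended on single arrays. Without any 1 array other than control rat 2, 0 of the 11 member probes passed the FDR of 0.1 (limma), with 2 to 3 at an unadjusted p under 0.05, beside 0 to 0.304% of all tested probes at that FDR. Without control rat 2, 8 of the 11 passed, beside 42.4% of all tested probes. At both probes called with all 8 arrays the groups did not overlap, so leaving out 1 array could not change the sign of the difference. Its size with each array left out in turn was -0.63 to -0.54 at Ksr1 probe 2 and 0.61 to 0.79 at Spry2.

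To set the scaffold against the kinases on each array, every probe was centred on its mean over the 8 arrays and the mean of the 5 kinase genes, read by the brightest tested probe of each, was subtracted from Ksr1 probe 2. Ksr1 minus kinases was -0.31, -0.30, -0.30 and -0.22 in stressed rats and 0.16, 0.15, 0.45 and 0.38 in control rats. The groups did not overlap and differed by -0.57, with 0.28 ± 0.15 in control and -0.28 ± 0.04 in stressed rats (SD, n = 4). The kinase mean alone differed by -0.02 and overlapped, so that nearly all of the difference came from Ksr1. In that mean Araf was read by probe 1, and the single kinases went both ways, from -0.15 (Map2k1) to 0.13 (Braf).

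Against the feedback genes the picture was mixed. Ksr1 minus Spry2 differed by -1.30 between the groups, the 2 genes having moved in opposite directions. The groups could not overlap here, as each stressed rat was below all control rats at Ksr1 and above them at Spry2. Ksr1 minus Dusp6 differed by -0.58, but the groups overlapped, since Dusp6 varied among rats of each group. Spry2 minus kinases differed by 0.73, without overlap, which restates the Spry2 difference, as the kinase mean differed by only -0.02.

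**Figure D2:**
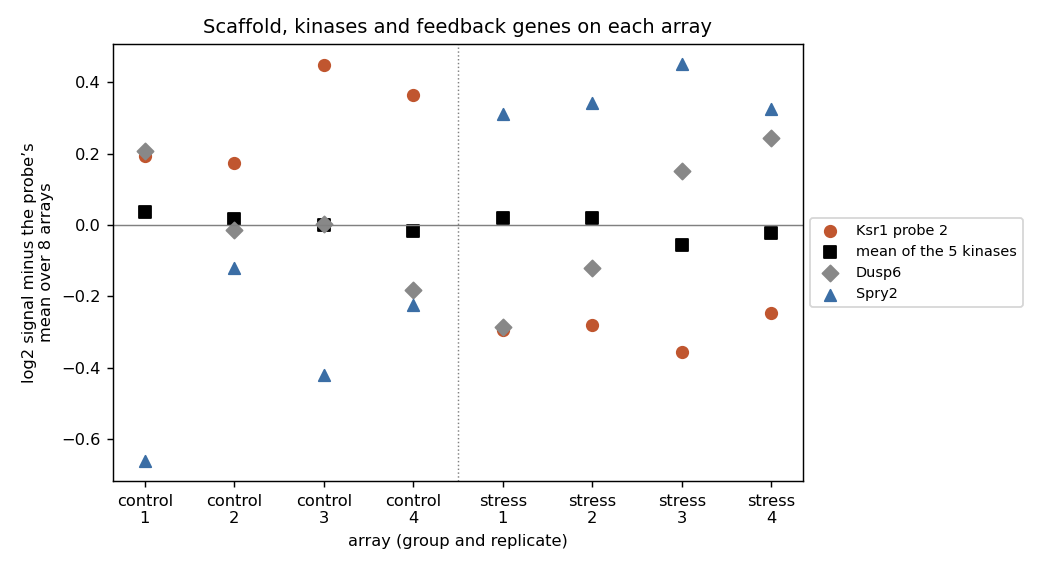
Log2 signal of Ksr1 probe 2, of the mean of the 5 kinase genes, of Dusp6 and of Spry2 on each array, each centred on its mean over the 8 arrays (y axis), by group and replicate (x axis). Ksr1 lies above 0 on the 4 control arrays and below 0 on the 4 stressed arrays, Spry2 the reverse, the kinase mean stays near 0 on all arrays, and Dusp6 is on both sides in each group.

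The arrays differed in more than stress. The signal of 5′ probes relative to 3′ probes of the same transcript was compared in 2024 transcripts with tested probes at least 300 bases apart, and its median, centred over arrays, was 0.16, 0.14, 0.15 and 0.09 in stressed rats. It was -0.27, 0.19, -0.27 and -0.16 in control rats, so that control rat 2 stood with the stressed rats. Araf probes 2 and 4 are 1 of these pairs, and Ksr1 and Spry2 are in none. On the single slide that held the 8 arrays, row 1 carried the stressed group and row 2 the controls, so that row and stress cannot be told apart. The slide column was the same as the replicate number and held a rat of each group. The 75th percentile of the signal was 1751 to 1945 in stressed and 1841 to 2335 in control rats, and 23005 to 24066 probes were well above background.

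Control rat 2 was the lowest control rat at Ksr1 probe 2 (-1.31) and the highest at Spry2 (-1.78), outside the range of the stressed rats at both. With the 5′ minus 3′ value of each array as a covariate, the difference was -0.50 (SE 0.10) at Ksr1 probe 2 and 0.49 (SE 0.12) at Spry2, against -0.59 and 0.71 without it. Apart from control rat 2, this value was positive in stressed and negative in control rats. The adjusted differences of all member probes therefore rest largely on that rat. Within the 4 slide columns the difference was -0.80 to -0.45 at Ksr1 probe 2, lower in stress in each, and 0.46 to 0.97 at Spry2, higher in each. Since the groups did not overlap at either probe, any pairing of a stressed with a control rat gives these signs.

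At other members the covariate changed the sign of the difference. It gave 0.18 at Araf probe 1, -0.24 at Araf probe 2 and -0.29 at Araf probe 3, against -0.08, 0.27 and 0.09 without it. Braf went from 0.13 to -0.03 and Mapk3 from 0.12 to -0.09. Map2k1 kept its sign but went from -0.15 to -0.01 (SE 0.10), while Araf probe 4 stayed between -0.26 and -0.17 and Map2k2 between -0.15 and -0.10 over 17 alternatives. Dusp6, near 0 with all arrays, ran from -0.09 to 0.09. No direction is given here for Araf probes 1 to 3, Braf, Map2k1, Mapk3 and Dusp6, and the part of the 5′ minus 3′ difference in the group differences was not tested.

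**Figure D3:**
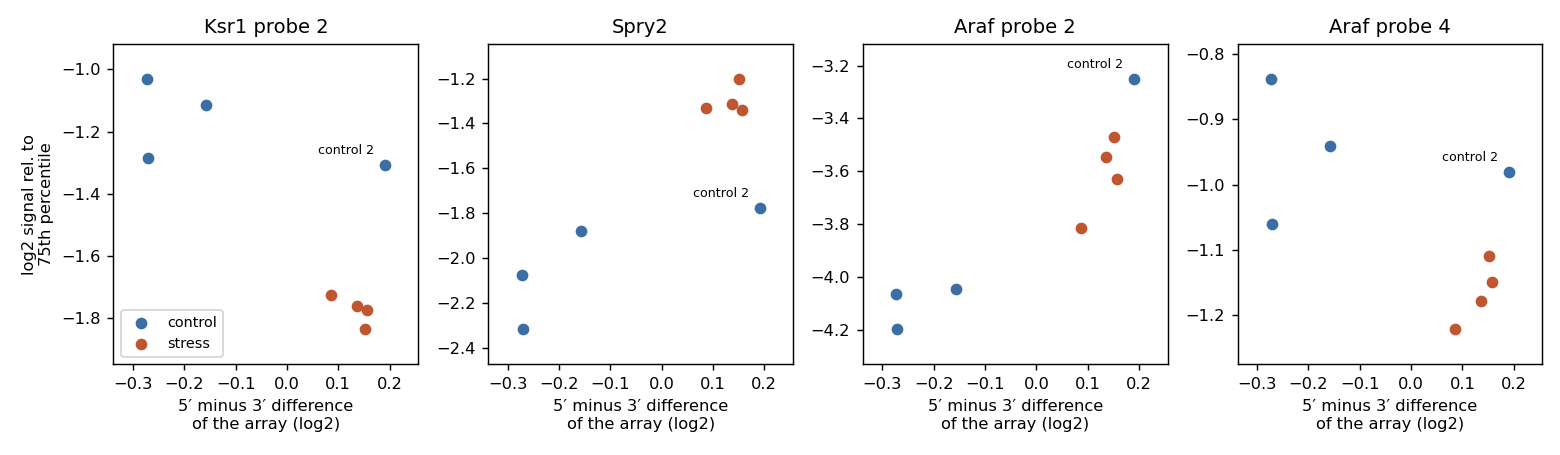
Log2 signal relative to the 75th percentile (y axis) of Ksr1 probe 2, Spry2, Araf probe 2 and Araf probe 4 against the 5′ minus 3′ difference of the array (x axis, log2), with 1 dot per rat and control rat 2 labelled. Control rat 2, at 0.19 on the x axis, lies with the control rats for Ksr1 probe 2, Spry2 and Araf probe 4 and above all stressed rats for Araf probe 2.

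**Figure D4:**
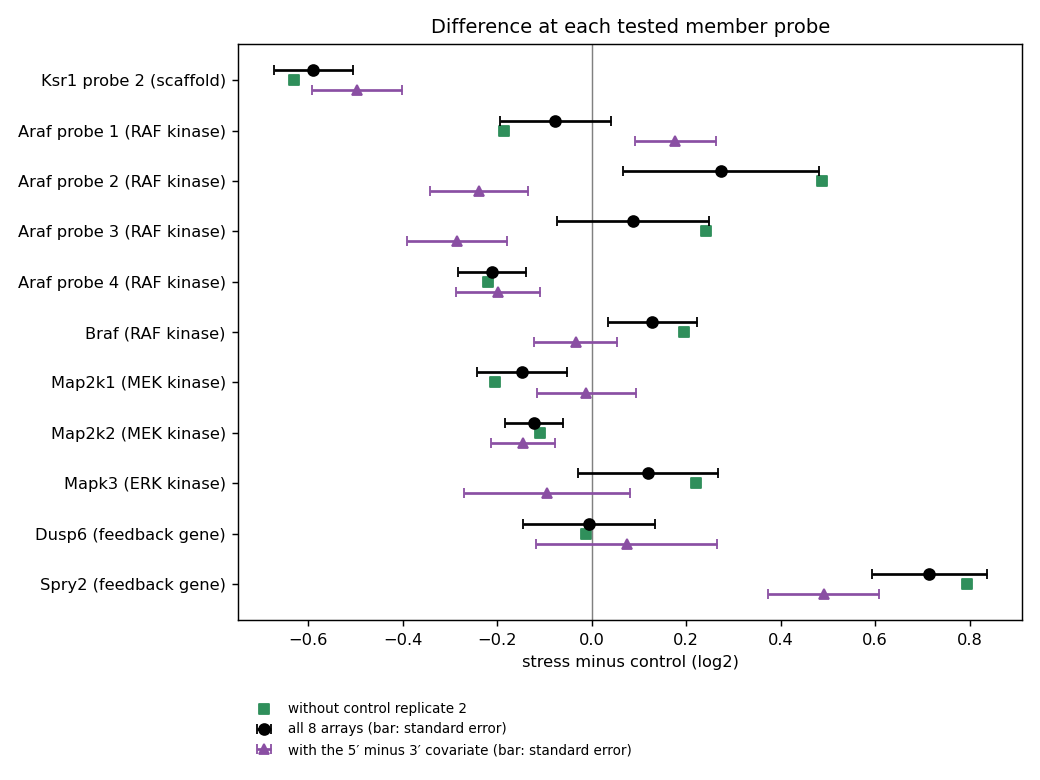
Difference between stressed and control rats (x axis, log2) at the 11 tested member probes (y axis) with all 8 arrays (circles, bars are the standard error), without control replicate 2 (squares) and with the 5′ minus 3′ covariate (triangles, bars are the standard error). Ksr1 probe 2 and Spry2 keep their sides with the covariate, whereas Araf probes 1 to 3 change sides with it.

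The tissue was checked against markers of cord cells and of other cells. For each of 9 lists of 5 genes (neurons, motor neurons, astrocytes, oligodendrocytes, microglia, Schwann cells, endothelial cells, meninges and fibroblasts, red blood cells) the mean of the tested markers overlapped between the groups. The differences of these means ran from -1.01 (Schwann cells) to 0.26 (oligodendrocytes). Control rat 2 was the highest control rat in every list but those of Schwann cells and of meninges and fibroblasts. Overlap without that rat was not examined. All listed markers were tested except Ncmap of the Schwann cell list. The oligodendrocyte and endothelial lists each had 1 of 5 markers past the FDR of 0.1, and the others had 0. Of all tested probes 3.74% passed it, and nothing is read from these counts. The Schwann cell mean varied most, from -5.55 to -0.05 in control and from -4.98 to -1.75 in stressed rats. The part of cell composition in the Ksr1 difference was not tested.

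Beyond the members, a list of 68 other genes of the Ras, RAF and ERK pathway was examined. Of these 66 had a probe, 62 were tested, and 3 passed the FDR of 0.1 (limma, Benjamini-Hochberg over all tested probes), 2 higher and 1 lower in stressed rats. The list share was 4.84%, beside 3.65% over the brightest tested probe of each gene name on the array. Its median difference was 0.03, and 35 of the 62 genes were higher, where the brightest probes of all gene names had a median of 0.04 and 57.3% higher. At an unadjusted p under 0.05 there were 14 of 62 genes, 9 of them higher, beside 19.9% over all gene names, so that the list was near the array as a whole.

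The gene with the lowest adjusted p was Ywhaz, which encodes the 14-3-3 zeta protein that binds phosphorylated RAF and KSR1 and keeps them in the cytoplasm. Its log2 signal was 2.90, 3.06, 2.93 and 2.98 in stressed rats and 1.87, 2.18, 2.14 and 2.36 in control rats. The groups were well apart, with a difference of 0.83 (SE 0.11) and an adjusted p of 0.0370 (limma). The adjusted p was 0.00117 to 0.207 over the alternatives. Ywhaz was the only gene called among the 15 tested RAF regulators and other scaffolds, whose median difference was -0.04. The other 14-3-3 gene among them, Ywhab, had a difference in the other direction and was not called (-0.33, SE 0.10, limma adjusted p = 0.138).

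Rps6ka3, which encodes the ERK-activated ribosomal kinase RSK2, was higher in stressed rats. It had -2.29, -2.31, -2.33 and -2.44 in stressed rats and -2.66, -2.63, -2.75 and -2.72 in control rats, a difference of 0.35 (SE 0.07, limma adjusted p = 0.0680, 0.00140 to 0.245 over the alternatives). A second, dimmer Rps6ka3 probe gave 0.07 (SE 0.09, limma adjusted p = 0.669). Mknk1, which encodes an ERK-activated kinase of the translation factor eIF4E, was lower in stressed rats. It had -1.03, -1.0, -1.08 and -1.15 in stressed rats and -0.71, -0.84, -0.82 and -0.75 in control rats, a difference of -0.29 (SE 0.07, limma adjusted p = 0.0946, 0.00666 to 0.250 over the alternatives). These were the called genes among 18 tested ERK substrates and target genes, whose median difference was 0.06.

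In the other groups of the list no gene passed the FDR of 0.1. These were 14 Ras proteins, adaptors and exchange factors (3 at an unadjusted p under 0.05), 5 Ras GTPase activating proteins (3) and 10 ERK phosphatases and feedback genes (2), to be read against the 19.9% over all gene names. Ksr2, the other scaffold of the family, and Brap had no probe under their names and were not analysed here.

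**Figure D5:**
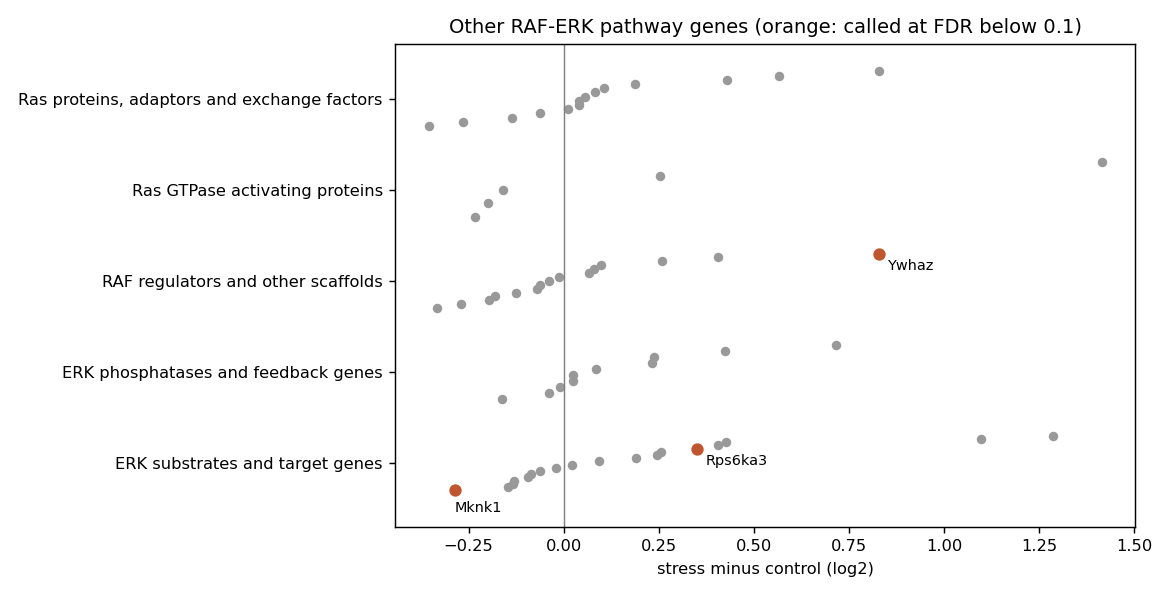
Difference between stressed and control rats (x axis, log2) for the 62 tested genes of the pathway list, 1 dot per gene at its brightest tested probe, by group (y axis, dots spread by rank), with genes past the FDR of 0.1 in orange. The 3 called genes are Ywhaz and Rps6ka3, higher in stressed rats, and Mknk1, lower, and the differences range from -0.35 to 1.41.

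Finally, the probes whose signal followed Ksr1 probe 2 most closely over the 8 arrays were listed, among 14080 tested probes of other genes with a symbol. They were Tbc1d25 (Pearson r = 0.995), Relt (0.992), Rnaseh2a (0.990), Igdcc4 (0.985) and Dyrk1b (0.985), with Spearman correlations of 0.905 to 0.976. Of the 14080 probes, 248 had an r above 0.9 with Ksr1. The points are 8 arrays in 2 groups, so a shared difference between the groups raises r by itself. All 5 were lower in stressed rats, by -0.32 for Tbc1d25, -0.33 for Relt, -0.24 for Rnaseh2a, -0.35 for Igdcc4 and -0.45 for Dyrk1b. With each group centred on its own mean, r was 0.937 for Tbc1d25, 0.890 for Relt, 0.885 for Rnaseh2a, 0.794 for Igdcc4 and 0.872 for Dyrk1b. These 5 were picked by their r over the same 8 arrays, which raises the within-group r as well. Within the members the same within-group r with Ksr1 was highest for Map2k1 (0.673) and lowest for Map2k2 (-0.80).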

How the data were processed

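Total RNA of L6S1 spinal cord was labelled with Cy3 and hybridized to Agilent SurePrint G3 Rat GE arrays, 1 per rat. The intensity values that the authors deposited are the processed signals of Agilent Feature Extraction 10.7.3.1, background-subtracted and detrended within each array per the file headers, and a table of the same intensity values, rounded, which differ by at most 0.0196 as a ratio. Neither shows a normalization between arrays.

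Here each array's 75th percentile was subtracted from its log2 signals, spots marked as outliers were left out, and spots of a probe were averaged. The 2 groups were fitted over 23678 probes with lmFit and eBayes of limma 3.58.1, without covariates, in R 4.3.3. P-values are two-sided, with Benjamini-Hochberg adjustment. Of a pathway gene, the brightest tested probe was used. The 17 alternatives were normexp background (offset 50), quantile normalization, the deposited table, 2 other filters on dim probes, variance trend, array weights, replicate block, the 5′ minus 3′ covariate and 8 arrays left out in turn. The fit was tested on simulated data. As arrays give no counts, their number limits the precision.

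Named genes are all members, pathway genes past the FDR of 0.1, Ksr2, and the 5 probes most correlated with Ksr1. Brap, Ncmap, Elk4 and Ywhab fall outside this rule and were added with their values known. Lamtor2, Lamtor3, Pea15, Rbfox3 and Mnx1 were found under older names through RefSeq (GRCr8). The members and lists were chosen with earlier results of these data known. Some genes of the pathway are not reported here.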

Additional observations from a re-analysis of the deposited data

Results flagged for a closer look

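In 34 groups of 4 rats, the most distant rat was compared with the range of its group by Dixon's ratio (its gap to the nearest other rat over the range). The ratio passed the 95% critical value in 2 groups, where chance gives about 1.7 of 34. At Araf probe 2 control rat 2 stood apart from the other control rats, at -3.25 against -4.20, -4.06 and -4.04 (ratio 0.837). In Ksr1 minus kinases stressed rat 4 stood apart, at -0.22 against -0.31, -0.30 and -0.30 (ratio 0.836), and it remained below all control rats.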

How the results depend on the processing

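Under the 17 alternatives the Ksr1 difference was -0.66 to -0.50 and the scaffold minus kinases difference -0.66 to -0.48. The sign of neither changed, but most alternatives could not have changed it. The 2 other filters, the variance trend and the replicate block left both differences as they were. The deposited table holds the same values rounded. Without overlap between the groups, leaving out 1 array cannot change a sign. Ksr1 probe 2 and Spry2 each passed the FDR of 0.1 in the same 9 of 17 alternatives, in which 0.908% to 50.6% of all tested probes passed. As these genes were chosen with this contrast known, nothing is read from that count. With array weights, 10 of 11 member probes and 38 of 62 pathway genes passed, beside 50.6% of all probes. Leaving out 1 array gave 0 to 8 member probes and 0 to 30 of 62 pathway genes. The higher counts came without control replicate 2, where 42.4% of all tested probes passed, against 0 to 0.304% without any other array. Normexp background left 1 pathway gene, beside 0.908% of all probes against 3.74%, and the 5′ minus 3′ covariate gave 7. A dimmer probe of Elk4 also passed (difference 0.84, limma adjusted p = 0.0705), while its brightest did not (-0.10, adjusted p = 0.597), which gives 4 pathway genes by any probe. Of all probe calls, 74.0% were higher in stress, against 58.1% after quantile normalization and 47.4% with the covariate, which called 9.82% of probes. Without a filter on dim probes the median of all probes rose from 0.06 to 0.11. The causes of these changes were not tested.

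With the replicate number as a block, 0 member probes and 0 pathway genes passed in limma, with 3 and 9 at an unadjusted p under 0.05, and 0 of all probes passed, while the differences were the same. Rats of the same number, which shared a slide column, correlated in their deviations from the group means by -0.09 to 0.31, and 0 of 4 stressed rats correlated best with their own number. They share only a number and a column.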
